A study of Homo sapiens with 4 samples.

Results

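THADA circles are the circular RNAs whose back splice lies in the THADA gene. A back splice joins the end of a downstream exon to the start of an upstream one and so closes the RNA into a ring. In the deposited table each back-splice position has 1 row, and the members are the rows whose gene field names THADA and that are not typed as antisense. This rule gave 127 of 211599 rows, with 957 counts in all. THADA was chosen with the differences of circle use between the control and knockdown libraries already known, on the same counts as are used here. The shares and levels of its circles are therefore given as a description, with no p-value. Where a fit across all circles or genes counted THADA or its circles, that count stands beside the share called overall and nothing is read from it.

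The cells were MDA-MB-468, a widely used line from a human breast cancer with basal-like features. All 4 libraries were made from a radioresistant derivative of the line that had received a total of 50 Gy in fractions. The controls were 2 libraries labelled shCtrl with genotype WT, and the other group was 2 libraries labelled shHNRNPL with genotype HNRNPL knockdown. The knockdown is stable, the protocol names a single hairpin, shHNRNPL-1, and the series describes its samples as 2 biological replicates of each kind. No unirradiated parent line was among the 4 libraries, so all values are from resistant cells. Circular RNA was read on the Nanopore platform after rolling copying by the Induro reverse transcriptase and amplification by phi29. The stated purpose was to find circular RNA that depends on HNRNPL.

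THADA was named after thyroid adenomas, in which chromosome breaks disrupt the gene. Its protein is the human counterpart of a yeast protein that partners a tRNA methyltransferase, known in human as FTSJ1, which modifies the anticodon loop of certain tRNAs. In flies the gene is known for a part in energy storage. HNRNPL is a nuclear protein that binds CA-rich RNA and regulates which exons are joined. Long genes with many exons, of which THADA is one, can give many different circles from a single locus, because any exon start may in principle be joined to any exon end further down.

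Library totals ran from 282737 to 556578 counts. Control replicate 1 stood apart from the other 3 libraries in 2 ways. Exon-type circles held 70.9% of its counts, against 84.9% to 85.7% elsewhere, and mitochondrial circles held 0.943%, against at most 0.107%. The log2 levels (pseudocount 0.5 per 100000) of 4944 circles with at least 40 counts correlated at r = 0.715 across circles between the controls and at r = 0.916 between the knockdown libraries. No row names HNRNPL, so the knockdown could not be checked on circles of its own gene. Of 7 basal markers, 3 had circle counts, EGFR among them, and KRT14 and KRT17 had none. Of 4 luminal or hormone receptor markers 3 had counts, 36 in all, and none of 6 stromal and immune markers had any. An mRNA that forms no circle has no counts in such libraries, and in bulk RNA fewer cells and less RNA per cell cannot be told apart.

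THADA lies on the minus strand of chromosome 2, from 43230851 to 43596038 in GRCh38.p14, a span of 365188 nt. All 127 positions lie inside it, and none names another gene. Transcription runs from the higher to the lower coordinate, so the higher end of a circle is its upstream acceptor (the start of its first exon) and the lower end is its downstream donor (the end of its last exon). Counts were found at 122 positions, and the 127 rows use 57 acceptors and 52 donors. Exon-type rows numbered 100 and held 899 counts, and 27 intron-type rows held 58 counts. A further 9 antisense rows with 18 counts were left out. Circles with at least 10 counts numbered 20, and these held 62.9% of the gene's counts. At that threshold 2 positions had 10 counts and 3 positions just outside it had 9.

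The splice letters of the positions that carry the differences are shown here, as deposited, with the acceptor's last 2 intron bases first and the donor's first 2 intron bases after the hyphen. The circle from 43578513 to 43590954, which leads the gene in the knockdown libraries, has AG-GT, the canonical pair. The circle from 43566698 to 43592416, frequent in the controls, also has AG-GT. The circles from 43586401 to 43592890 and from 43586401 to 43592416 have AG-GC, the rarer pair in which the donor begins with GC. The letters were taken from the table, and no longer stretch of the junctions is printed.

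Summed over its positions, THADA had 215 counts in control replicate 1 and 333 in the other control. Knockdown replicate 1 had 152 counts and the other knockdown library 257. Scaled to 100000 circle counts of a library, these were 45.5 (exact 95% interval 39.6 to 52.0), 59.8 (53.6 to 66.6), 53.8 (45.6 to 63.0) and 65.8 (58.0 to 74.4). The 2 groups overlapped, since knockdown replicate 1 lay between the controls. The control mean was 52.7 ± 10.1 and the knockdown mean 59.8 ± 8.52 (SD, n = 2 each), 1.14 times the former. On the scale of edgeR's fit with TMM factors the log2 fold change was 0.48 ± 0.38 (SE). It was 0.18 with plain library-size scaling, which shifts the median of all host genes from -0.26 to -0.58. Leaving out a control moved it from 0.17 (without replicate 1) to 0.97 (without replicate 2). The molecules were amplified without identifiers, so here and below these intervals cover counting error only. Where a circle has 0 counts, the limit of 3 counts stands at 0.539 to 1.06 per 100000, depending on the library. By total counts THADA ranked 360th of 8388 host genes with at least 10 counts. The edgeR quasi-likelihood test with Benjamini-Hochberg adjustment called 37 of these genes (0.441%), all higher in the knockdown and 0% lower. At an unadjusted p under 0.05 it gave 518 lower genes, and DESeq2 called 9 lower after adjustment. THADA was not among the genes called.

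**Figure D1:**
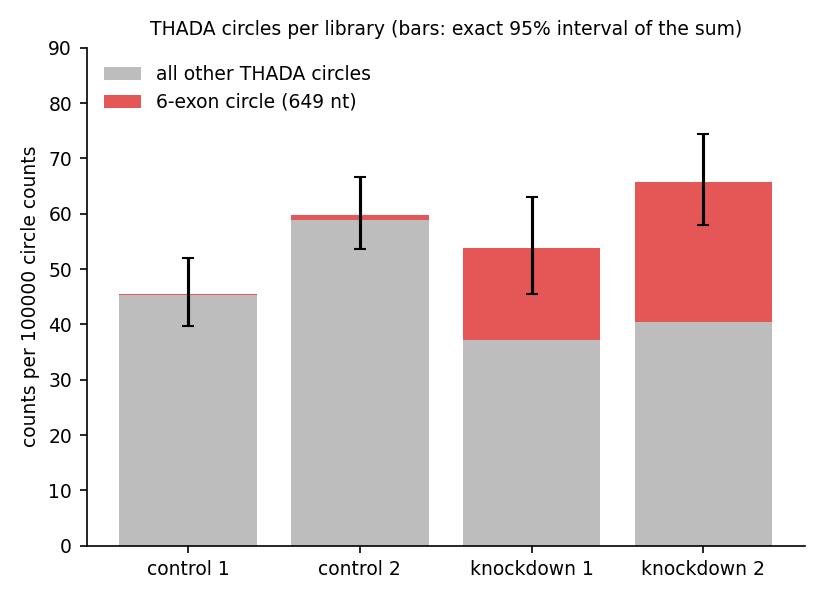
THADA circle counts in each of the 4 libraries, per 100000 circle counts, as stacked bars of the leading 6-exon circle and all other THADA circles, with the exact 95% interval of the sum. The whole-gene level overlaps between groups (45.5 and 59.8 in the controls, 53.8 and 65.8 in the knockdown), while the leading circle makes up 0.212 and 0.898 in the controls and 16.6 and 25.3 in the knockdown.

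How that sum was divided among positions is described next, from the circle with the most counts. The leading position runs from 43578513 to 43590954 and encloses 6 exons in its first listed form, of 649 nt. Its acceptor lies 5.084 kb and its donor 17.525 kb from the start of the gene. The exons are 131, 149, 33, 53, 188 and 95 nt long, in transcript order. The table lists 3 forms at this position, of 649, 4470 and 2934 nt, and does not split the counts among them. For every circle below, the exon number and length are those of the first listed form.

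This 6-exon circle had 1 count in control replicate 1 and 5 in the other control. It had 47 counts in knockdown replicate 1 and 99 in the other knockdown library. As a share of THADA counts these were, in the same order, 0.465% (exact 95% interval 0.0118 to 2.56), 1.50% (0.489 to 3.47), 30.9% (23.7 to 38.9) and 38.5% (32.5 to 44.8). Both knockdown libraries stood far above both controls. The intervals cover counting error only, and the gene was chosen on this contrast, so they are not read as a test. The mean share was 0.983% ± 0.733 (SD, n = 2) in the controls and 34.7% ± 5.37 (SD, n = 2) in the knockdown, a difference of 33.7 percentage points. Its mean level per 100000 circle counts was 0.555 ± 0.486 in the controls and 20.99 ± 6.17 in the knockdown (SD, n = 2 each). Pooled over each group the level was 37.2 times higher in the knockdown (95% counting interval 16.7 to 103). The fitted log2 fold change was 5.11 ± 0.61 (SE), and relative to the gene's other circles it was 4.37.

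The rest of the gene's circles came to 45.3 and 58.9 per 100000 in the controls and to 37.1 and 40.5 in the knockdown. The groups did not overlap. The control mean was 52.1 ± 9.64 and the knockdown mean 38.8 ± 2.35 (SD, n = 2 each), 0.744 times the former. On that same scale the median ratio over the host genes, with all their circles kept, was 0.667, and 70.8% of them were below 1. THADA with all its circles stood at 1.14. The value of 0.744 leaves out its leading circle, so it is not ranked among those genes. Because shares of a gene add to 100%, a share that is larger for 1 circle makes the others smaller. Shares without the 6-exon circle in the denominator are therefore also given for the named circles whose overlap or order of means then changed.

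The circle from 43566698 to 43592416 showed the opposite pattern. It encloses 14 exons and 2335 nt in its first listed form and has a longer body on both sides than the 6-exon circle, which lies wholly within its span. It had 16 and 24 counts in the controls and 1 and 0 in the knockdown libraries. The shares were 7.44% and 7.21% in the controls, against 0.658% in knockdown replicate 1 and 0 in knockdown replicate 2, where 3 counts would be 1.17%. Both controls were above both knockdown libraries. The mean share was 7.32% ± 0.166 in the controls and 0.329% ± 0.465 in the knockdown (SD, n = 2 each), which is -7.00 percentage points from control to knockdown. The pooled level was 26.2 times higher in the controls, with a wide counting interval of 4.44 to 1059 because a single knockdown count enters it. The fitted log2 fold change was -4.46 ± 1.00 (SE).

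A close relative of that circle did not differ in the same way. It uses the same donor at 43566698, and its acceptor at 43592890 lies 1 exon further upstream, an exon of 47 nt. It holds 15 exons and 2386 nt. Its counts were 14 and 23 in the controls and 11 and 13 in the knockdown, and its mean shares were 6.71% ± 0.280 (SD, n = 2) and 6.15% ± 1.54 (SD, n = 2). The groups overlapped, and the fitted log2 fold change was -0.02 ± 0.45 (SE). Without the leading circle in the denominator its shares were 6.54% and 7.01% in the controls and 10.5% and 8.23% in the knockdown, so the order turned and the groups no longer overlapped. The difference between these 2 circles was not tested, since both were members of a gene chosen on this contrast.

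The circle with the most counts in the controls was a 3-exon circle of 1027 nt from 43571707 to 43575027. It had 9 and 39 counts in the controls and 12 and 21 in the knockdown. Control replicate 2 was the highest library and control replicate 1 the lowest in share, so the groups overlapped, with means of 7.95% ± 5.32 (SD, n = 2) and 8.03% ± 0.195 (SD, n = 2). It is an example of a circle whose spread between the controls exceeded the difference between the groups.

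**Figure D2:**
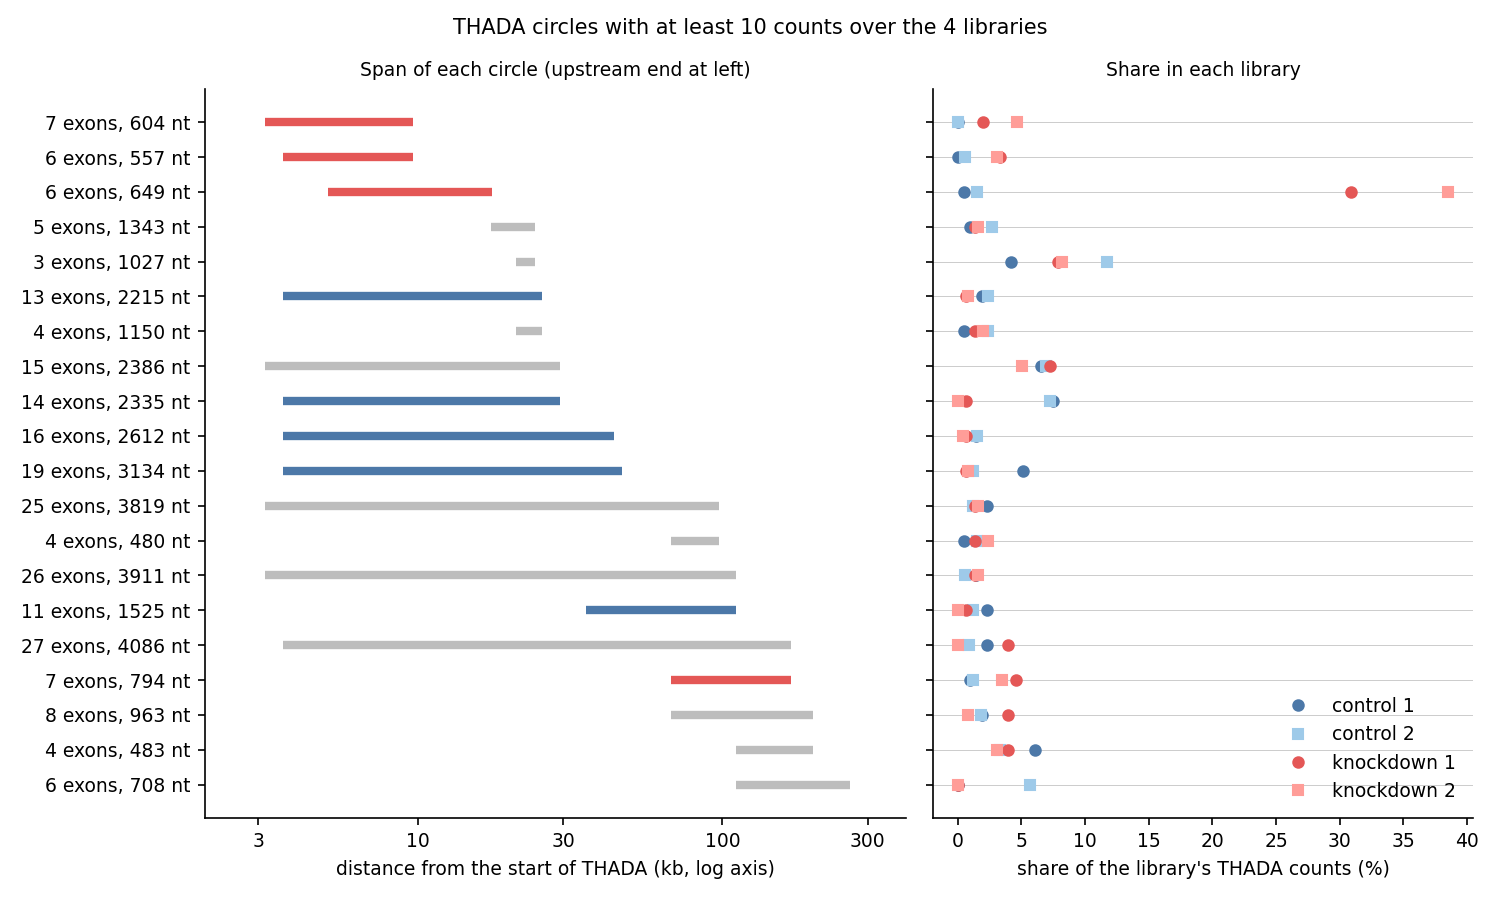
Map of the 20 THADA circles with at least 10 counts, each drawn from its acceptor to its donor by distance from the start of the gene (kb, log axis), beside its share of THADA counts in every library (1 symbol per library). Red marks circles whose knockdown shares are both above both controls, blue those both below, and grey those that overlap. The mean share of the 6-exon, 649 nt circle is 0.983% in the controls and 34.7% in the knockdown, and that of the 14-exon circle 7.32% and 0.329%.

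Back splices closed at the GC donor at 43586401 had most of their counts in the knockdown libraries. A circle of 7 exons and 604 nt, from 43586401 to 43592890, had 0 and 0 counts in the controls and 3 and 12 in the knockdown. Its mean share was 0% in the controls and 3.32% ± 1.91 (SD, n = 2) in the knockdown. The mean knockdown level was 3.52 times the mean limit of 3 counts in the control libraries. Knockdown replicate 1, with 3 counts, stood at its own limit of 1.06 per 100000, and replicate 2 held the other 12. A circle of 6 exons and 557 nt, from 43586401 to 43592416, had 0 and 2 counts in the controls and 5 and 8 in the knockdown. Its mean shares were 0.300% ± 0.425 (SD, n = 2) and 3.20% ± 0.125 (SD, n = 2), and its pooled level was 9.93 times higher in the knockdown (95% counting interval 2.25 to 90.7). Summed over these 2 circles, the counts were 0 and 2 against 8 and 20, with mean shares of 0.300% ± 0.425 (SD, n = 2) and 6.52% ± 1.78 (SD, n = 2). With the 6-exon 649 nt circle left out of the denominator, the knockdown mean was 10.1% ± 3.56 (SD, n = 2) and the groups still did not overlap.

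The GC donor lies 4 nt inside an exon that other THADA circles carry to its full length. Rows whose listed exons end at 43586397, the full length, numbered 14 and held 322 counts, but no back splice was placed at that end. Rows with the shorter end at 43586401 numbered 3 and held 71 counts, of which 30 were from the 2 circles closed there. The other 41 were those of the 14-exon circle from 43566698 to 43592416, which lists the shorter exon inside its body in 2 of its 3 forms and had 40 counts in the controls and 1 in the knockdown. Over the 3 rows the controls thus held 42 counts and the knockdown libraries 29. Forms are listed per position, and the counts are not split among them. How many of the 14-exon circle's 40 control counts carried the shorter end is therefore not known. The pair AG-GC made up 3.13% of THADA counts and 0.565% of all circle counts, over 552 rows of the table. The canonical pair AG-GT without an added asterisk held 87.7% of THADA counts and 65.9% of all counts. Motifs that the table prints with an asterisk, whose meaning is not given in the sources used here, held 13.8% ± 8.08 (SD, n = 2) of THADA counts in the controls and 3.72% ± 0.315 (SD, n = 2) in the knockdown. Control replicate 1, which stood apart in the share of exon circles over the whole table, had 42 of these 84 counts.

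Further down the gene the shares were smaller and the differences mostly within the spread. The 7-exon circle of 794 nt from 43428100 to 43527988 had 2 and 4 counts in the controls and 7 and 9 in the knockdown. Its mean shares of 1.07% ± 0.192 (SD, n = 2) and 4.05% ± 0.780 (SD, n = 2) did not overlap, and the pooled level was 4.08 times higher in the knockdown (95% counting interval 1.51 to 12.7). A 4-exon circle of 480 nt that shares its acceptor and ends at 43498833 had 1 and 5 counts against 2 and 6, and overlapped. With the leading circle left out its shares were 0.467% and 1.52% against 1.90% and 3.797%, which did not overlap. A 4-exon circle of 483 nt from 43397971 to 43485325 had 13 and 11 counts against 6 and 8, with means of 4.67% ± 1.94 (SD, n = 2) and 3.53% ± 0.590 (SD, n = 2). With the leading circle left out its means were 4.71% ± 1.92 and 5.39% ± 0.460 (SD, n = 2 each), in the opposite order, and overlapped under both denominators.

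A 6-exon circle of 708 nt from 43333155 to 43485325 was carried by control replicate 2 alone, with 19 counts there and 0 in the other 3 libraries. The 19-exon circle of 3134 nt from 43549210 to 43592416 had 11 and 4 counts in the controls, and 1 and 2 in the knockdown. Its shares were lower in the knockdown without overlap, but without the leading circle they overlapped, at 5.14% and 1.22% in the controls and 0.952% and 1.27% in the knockdown. The 11-exon circle of 1525 nt from 43485234 to 43560385 had 5 and 4 counts in the controls and 1 and 0 in the knockdown. The 13-exon circle of 2215 nt from 43570388 to 43592416 had 4 and 8 counts against 1 and 2, with mean shares of 2.13% ± 0.383 (SD, n = 2) and 0.718% ± 0.0851 (SD, n = 2). The remaining named circles, an 8-exon circle of 963 nt (4 and 6 against 6 and 2 counts) and a 5-exon circle of 1343 nt (2 and 9 against 2 and 4), overlapped in share under both denominators. The means of the 5-exon circle without the leading circle were 1.84% ± 1.28 and 2.22% ± 0.443 (SD, n = 2 each), the opposite order from those with it.

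The other 5 circles of 10 or more counts, which the naming rule did not pick, had 10 to 16 counts each. Among these a 16-exon circle of 2612 nt had 3 and 5 counts against 1 and 1. The 107 positions under 10 counts held 116 and 148 counts in the controls and 34 and 57 in the knockdown, mean shares of 49.2% ± 6.72 and 22.3% ± 0.134 (SD, n = 2 each). Without the leading circle in the denominator the shares were 49.7% ± 6.42 and 34.2% ± 2.61 and still did not overlap. Both controls were sequenced deeper than both knockdown libraries, and whether other genes had the same order was not tested.

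Over the 20 circles with at least 10 counts, the knockdown shares were both above both controls for 4, both below for 5, and overlapped for 11. For the 19 other than the leading circle, with that circle out of the denominator, 6 were above, 4 below and 9 overlapped. Among the 15269 circles of that depth in genes with several of them, 23.5% were above and 21% below without overlap, with these circles alone in the denominator. On that denominator THADA had 4 of 20 above and 9 below, and the leading circle is in the denominator of each. By level per 100000, 5 of the 20 were above and 5 below, against 23.2% and 22.9% of 21576 circles. The gene was chosen on this contrast, so nothing is read from these counts. The edgeR quasi-likelihood test with Benjamini-Hochberg adjustment called 0 of the 21576 circles (0%), and 2925 (13.6%) had an unadjusted p under 0.05. DESeq2 called 1085 of them. Of the 20 THADA circles 5 (25.0%) were under the unadjusted threshold, 4 higher and 1 lower, and the rule that chose the gene used this contrast. Their median log2 fold change was 0.05, against -0.41 over all circles.

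How far the composition of a gene shifts can be put as the share of its counts that would have to move between circles to make 2 profiles equal. Over the 20 circles this shift was 54.3% between the groups' mean profiles, 33.3% between the 2 controls and 16.8% between the 2 knockdown libraries. The first value compares means of 2 libraries, and the others compare single libraries. THADA was chosen on this contrast, so nothing is read from the larger shift between groups or from its place among the genes below. Over 847 genes with at least 200 counts the medians were 20.8%, 22.1% and 13.8%, and 27 of the 847 had a shift between groups at least as large as that of THADA. The edgeR F test for unequal circle use called 92 of 2327 genes (3.95%), THADA among them, and the gene was chosen with that known. Without knockdown replicate 1 it called 1 gene and without knockdown replicate 2 it called 2, and THADA was in neither.

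Circles that share a splice site can be summed at it. The acceptor of the 6-exon circle, 43590954, occurs in 2 other positions with 8 counts in all, and its donor, 43578513, in no other. The acceptor at 43592416 had 46 and 49 counts in the controls and 17 and 14 in the knockdown. Its mean share was 18.1% ± 4.72 (SD, n = 2) and 8.32% ± 4.06 (SD, n = 2), without overlap. With the leading circle out of the denominator the means were 18.2% ± 4.64 and 12.5% ± 5.18 (SD, n = 2 each), and the groups overlapped. The neighbouring acceptor at 43592890, 1 exon upstream, had 22 and 29 counts against 18 and 35. Its mean share was higher in the knockdown, at 9.47% ± 1.08 and 12.7% ± 1.26 (SD, n = 2 each).

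The donor at 43566698 had 37 and 56 counts in the controls and 12 and 16 in the knockdown. Its share was 17.01% ± 0.278 and 7.06% ± 1.18 (SD, n = 2 each), and it stayed lower without the leading circle, at 17.2% ± 0.153 and 10.8% ± 0.921. The acceptor at 43527988 had the opposite order, with 8 and 20 counts against 17 and 21 and mean shares of 4.86% ± 1.62 and 9.68% ± 2.13 (SD, n = 2 each). The donor at 43428100 followed the same order, at 4.26% ± 0.766 and 7.19% ± 1.92. The acceptor at 43485325 was lower in the knockdown, at 8.69% ± 0.450 and 4.44% ± 0.230. Without the leading circle the means were 8.78% ± 0.520 and 6.81% ± 0.209. Of its 30 counts in control replicate 2, however, 19 came from the 708 nt circle found in that library alone. The 483 nt circle at the same acceptor overlapped between groups. The acceptor at 43575027 and the donors at 43571707 and 43397971 overlapped between groups.

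**Figure D3:**
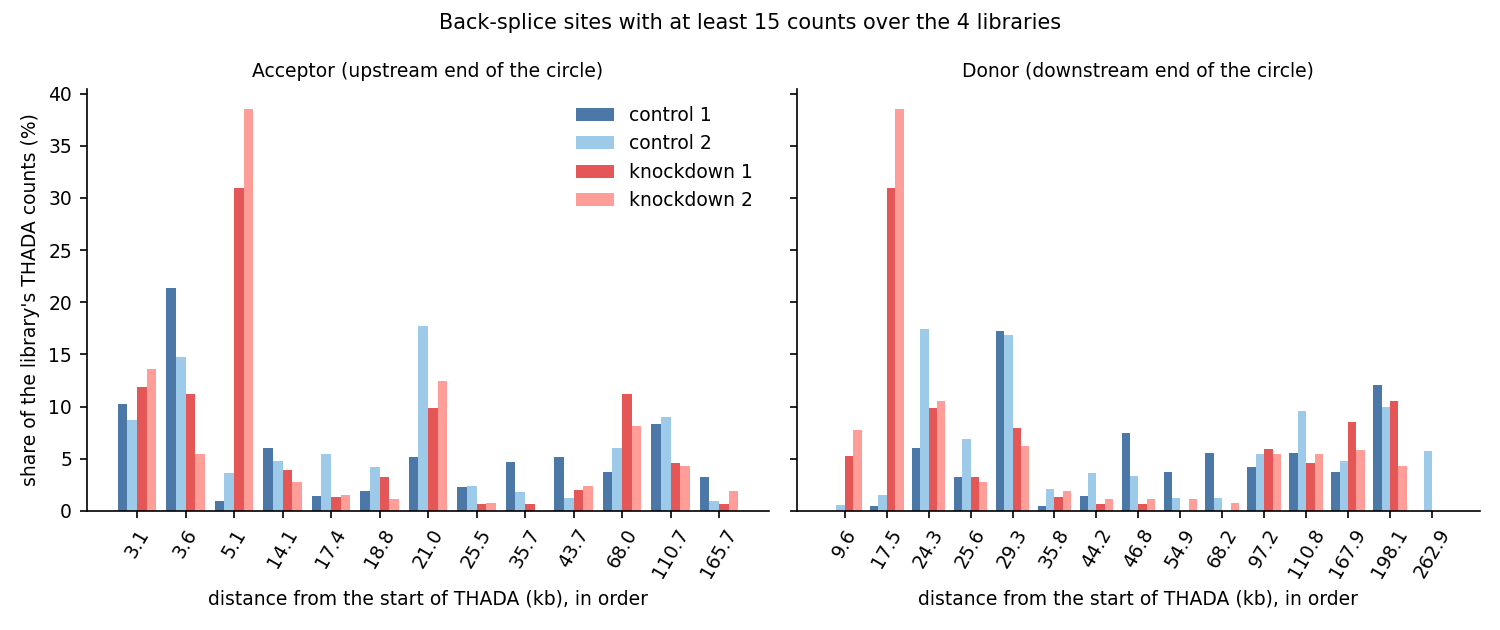
Share of each library's THADA counts (%) at acceptors (left) and donors (right) with at least 15 counts, ordered by distance from the start of the gene (kb), 1 bar per library. The donor at 29.3 kb (43566698) averages 17.01% in the controls and 7.06% in the knockdown, and the tall knockdown bars at 5.1 and 17.5 kb are the leading circle's 2 ends.

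By the first form listed at each position, the THADA circles were also shorter in the knockdown libraries. Counts are not split among forms, so the lengths of the circles counted are not known where several are listed. Such positions held 25.1% and 33.0% of THADA counts in the controls and 57.2% and 58.0% in the knockdown. Whether circles of all genes differed in length between the groups was not tested. The count-weighted median length of THADA circles was 1525 and 1274 nt in the controls and 858 and 649 nt in the knockdown, against 1027 nt over the 4 libraries and 1303 nt over all circles. Without the leading circle these were 1525, 1343, 1150 and 1027 nt, so the order held at smaller distances. Circles of 12 or more exons held 34.4% and 31.8% of THADA counts in the controls and 21.7% and 11.7% in the knockdown, with means of 33.1% ± 1.83 and 16.7% ± 7.10 (SD, n = 2 each). Without the leading circle the shares were 34.6% and 32.3% in the controls and 31.4% and 19.0% in the knockdown. The means were then 33.4% ± 1.60 and 25.2% ± 8.80, and the groups came close but did not overlap. Circles of 6 to 11 exons, among them the leading one, had the opposite order, at 27.8% ± 7.03 and 55.9% ± 4.60. Without the leading circle that class overlapped, at 27.1% ± 6.56 and 32.5% ± 1.50. Circles of 2 to 5 exons had mean shares of 29.5% ± 2.89 and 22.3% ± 2.64, and of 29.8% ± 3.14 and 34.4% ± 6.87 without the leading circle, where they overlapped.

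**Figure D4:**
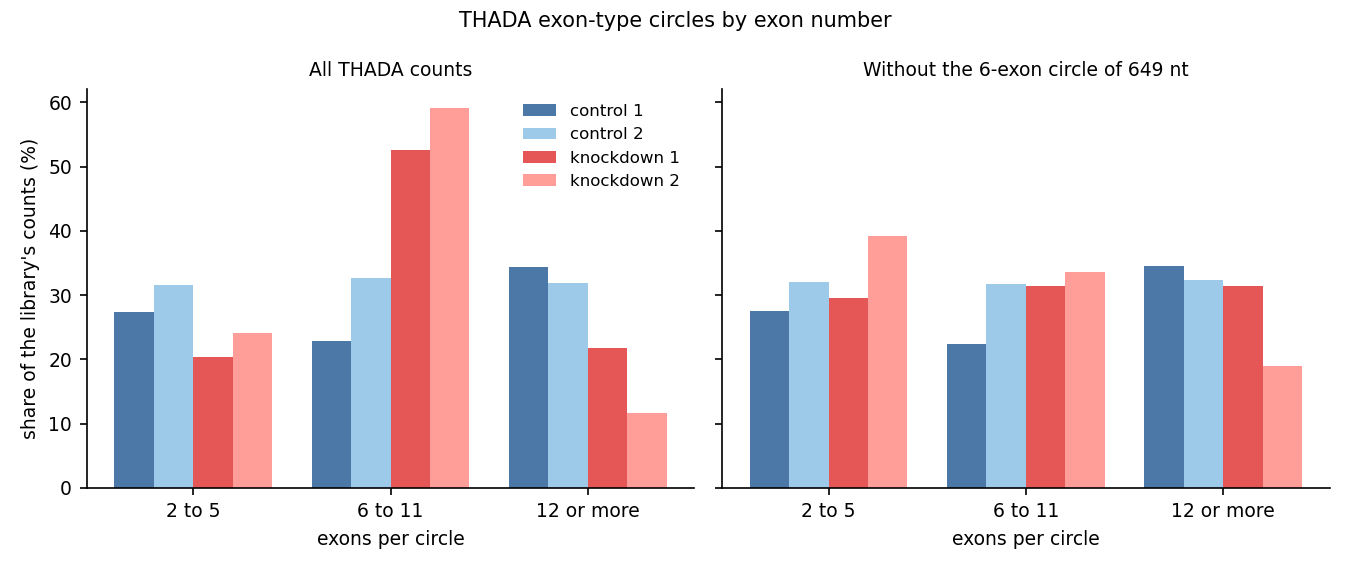
Share of THADA counts in circles of 2 to 5, 6 to 11 and 12 or more exons, by the first listed form. There is 1 bar per library, with (left) and without (right) the leading 6-exon circle. With it, the class of 6 to 11 exons holds 27.8% in the controls and 55.9% in the knockdown, and without it 27.1% and 32.5%.

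The knockdown libraries held counts at fewer positions. There were 68 and 76 in the controls and 45 and 48 in the knockdown, at different depths. At an equal depth of 152 THADA counts, the expected numbers were 58.4 and 58.7 in the controls and 45.0 and 38.9 in the knockdown. On average 58.5 ± 0.198 positions were expected in the controls and 41.9 ± 4.34 in the knockdown (SD, n = 2 each), and the share taken by the leading circle enters these numbers. Of the 122 positions found, 58 (47.5%) were in 1 library, against 58.3% over all circles, and 17 (13.9%) were in all 4, against 8.97%. Of the 44 positions with at least 5 counts, 12 (27.3%) were in 1 library only, 6 in each control and 0 in the knockdown libraries. Over all circles that share was 25.0%, with 8557 and 3720 such positions in the controls and 44 and 210 in the knockdown libraries, so few of them lay in the knockdown libraries in the whole table too.

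The other genes of tRNA modification were taken as the gene's pathway. Of 67 genes on that list, 48 had circle counts and 38 were tested. The list held 1 gene of 38 called higher and 0 lower by the edgeR quasi-likelihood test with Benjamini-Hochberg adjustment, beside 0.441% higher and 0% lower over all host genes. At an unadjusted p under 0.05 it had 3 higher and 0 lower, beside 632 higher and 518 lower of all 8388 host genes. DESeq2 also called 1 higher and 0 lower, beside 176 higher and 9 lower of the 8388. It had 15 genes with positive and 23 with negative log2 fold changes, and a median of -0.34 against -0.26 over all host genes. FTSJ1, the methyltransferase that THADA partners, and WDR6, another of its partners, had no circle counts in any library. DTWD1, which adds an aminocarboxypropyl group to tRNA uridine, had 15 and 18 counts in the controls and 42 and 78 in the knockdown. It rose from 3.20 ± 0.0417 to 17.4 ± 3.62 per 100000 (SD, n = 2 each), a log2 fold change of 2.74 ± 0.42 (SE, edgeR adjusted p = 0.0450). The call was lost with edgeR's newer dispersion method (adjusted p = 0.0932), and without knockdown replicate 1 (0.919) or 2 (0.913). No list gene and no other host gene was called with the newer dispersion method. TARBP1, a tRNA 2'-O-methyltransferase, had 139 ± 8.34 and 74.2 ± 1.89 per 100000 and a log2 fold change of -0.59 ± 0.36 (SE, edgeR adjusted p = 0.484). TRMT11, a tRNA guanosine methyltransferase, had 97.9 ± 25.0 and 88.5 ± 4.11 per 100000, with overlapping libraries and a log2 fold change of 0.14 ± 0.40 (SE). PUS7, a pseudouridine synthase, had 93 and 192 counts against 134 and 202 and did not pass (log2 fold change 1.14 ± 0.42, edgeR adjusted p = 0.306).

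Of 16 genes in the chromosomal neighbourhood of THADA, 11 had circle counts and 10 were tested. DYNC2LI1, a light intermediate chain of the dynein that works in cilia, was called higher, with 7 and 15 counts in the controls and 51 and 92 in the knockdown and a log2 fold change of 3.57 (edgeR adjusted p = 0.0401). It was the 1 gene called of the 10, beside 0.441% of all host genes, and 0 were called lower. Its call too was lost with the newer dispersion method (adjusted p = 0.0895) and without knockdown replicate 1 (0.919) or 2 (0.913).

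The host genes whose summed level was most like that of THADA over the 4 libraries, among 2881 with at least 100 counts, were HOMER1, SPDYA, NRDC, a gene listed as ENSG00000287676, and GPR89A. Likeness was the root mean square distance of centred log2 counts per 100000, and it ran from 0.0330 for HOMER1 to 0.0717 for GPR89A. HOMER1 had 30.1, 42.2, 36.4 and 44.8 per 100000, in the same order of libraries as THADA. With 4 libraries, such likeness describes these samples only.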

How the data were processed

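Per the labels, the submitters made libraries from total RNA with random hexamers, Induro reverse transcriptase, phi29 amplification and T7 endonuclease I. CIRI-long is named in a column of the deposited table, and GRCh38.p14 and DESeq2 in the submitters' processing notes, without versions. The aligner and base caller are not given in the sources used here. The authors deposited raw counts per back-splice position, not normalized, and these counts are what was analysed. A second table of scaled values was not used.

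Members, lists and tests were chosen with earlier results of these data known. Circles named were the 10 with the most counts and, among those with at least 10 counts, the 5 with the largest rise and the 5 with the largest fall in mean share. Of the tRNA list, genes past the threshold, FTSJ1, WDR6 and the 3 with the most counts (TARBP1, TRMT11, PUS7) were named. DYNC2LI1 was named because it passed the threshold. Like genes were the 5 with the smallest distance (pseudocount 0.5 per 100000).

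Counts were fitted with edgeR 4.0.16 (quasi-likelihood, TMM, R 4.3.3) over rows with at least 10 counts, adjusted over all of them, at a threshold of 0.05, and DESeq2 1.42.0 served as an alternative. Unequal circle use was fitted with edgeR's diffSpliceDGE. Host gene counts were sums over non-antisense rows, and a row naming several genes counted for each. Scripts were tested on simulated data. Shares used no test, because 2 against 2 libraries cannot pass the threshold in an exact permutation test. P-values set the difference between the groups against the spread between these libraries, as modelled over all fitted rows. Intervals are exact Clopper-Pearson or conditional on pooled counts. Same-numbered replicates were not paired in the main fit, as their deviations correlated at 0.0706 over 4944 circles with at least 40 counts. The labels do not say whether same-numbered libraries shared a culture or infection. That correlation does not settle the pairing, and a fit with a replicate block is given among the alternatives.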

Additional observations from a re-analysis of the deposited data

How the results depend on the processing

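With 2 libraries per group and counts from amplified molecules, the depth limits every share under about 2% of the gene. The level of the whole gene kept a positive log2 fold change in every alternative run, and its leave-one-out range was 0.17 to 0.97. The leading circle's log2 fold change kept its direction in each alternative run, and is given with no call. It stood at 4.98 with no filter, 5.12 under the filter of 5 counts in 2 libraries and 5.20 under that of 40 counts, at 5.24 in DESeq2 and at 5.20 in the replicate block fit, and ran from 4.73 to 6.29 when a library was left out. Its relative use ran from 4.03 to 5.32 then. For the 14-exon circle the values were -4.47, -4.40, -4.67 and -4.48 under the filter of 5 counts in 2 libraries, the filter of 40 counts, DESeq2 and the replicate block, from -7.18 to -3.39 with a library left out, and from -8.16 to -3.98 for its relative use. The 15-exon circle changed sign to 0.015 with library-size scaling, 0.024 with DESeq2 size factors, 0.060 at 40 counts, 0.024 with DESeq2 and 0.0024 to 0.0995 with a library left out. The 3-exon circle was at -0.053 with no filter and from -0.31 to 1.17 with a library left out, and 3 others also changed sign in that way, from -0.56 to 0.28 (43397971 to 43485325), from -0.74 to 1.07 (43397971 to 43527988) and from -0.64 to 0.85 (43571707 to 43578607). With only positions of at least 10 counts in the denominator the share differences were 42.8 and -14.1 points for the 6-exon and 14-exon circles, and -7.68 for the latter with exon-type rows. The count of called circles, 0, became 471 with no filter, 1422 at 5 counts in 2 libraries, 562 at 40 counts, 1085 with DESeq2, 1620 with the replicate block and 0 to 6266 with a library left out. The count of called host genes, 37, became 56 with library-size scaling, 61 with DESeq2 size factors, 415 with no filter, 116 at 5 counts in 2 libraries, 107 at 40 counts, 0 with the newer dispersion method, 185 with DESeq2, 89 with rows of 1 gene, 91 with exon-type rows, 306 with the replicate block and 0 to 2793 with a library left out. Genes with unequal circle use, 92, became 535 with the replicate block and 1 to 1061 with a library left out. The tRNA genes called higher, 1, became 2 with the replicate block, 2 with no filter, 0 with the newer dispersion method and 0 to 5 with a library left out, and those called lower, 0, became 0 to 4. For this list the filters, the newer dispersion method, DESeq2 size factors and exon-type rows were chosen after seeing the data, as were shares without the leading circle. The cause of these differences was not tested. Leaving out 1 control library gave the highest counts of called circles, host genes and genes with unequal use among the alternatives run. The replicate block changed no direction among the fitted log2 fold changes of the named THADA circles.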
